A study of Mus musculus with 10 samples.

Results

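The mitosis and G2/M genes are 50 named genes that act between the end of DNA replication and the division of the cell, and they were taken by gene symbol from a table of 26335 rows. All 50 were found, each in 1 row, and all 50 had a mean log2 CPM above 0, the level from which genes were tested (12306 genes in all). The table holds RNA sequencing of mSCLC-2405, a line of mouse small cell lung cancer, with 5 control and 5 stiripentol libraries. Stiripentol is an antiseizure medication that was studied here as an inhibitor of the mitochondrial respiratory chain, and the cells were grown with 250 μM of it for 48 h in RPMI medium with serum. Control cells received DMSO per the sample records. Both groups are the same line, which came from a primary lung tumour of a genetically engineered model with conditional gene deletion, that of Rb1 included, by Cre virus given into the airway, so the data describe 1 line from 1 model. No source used here says whether the 5 libraries of a group came from separate cultures, so the p-values measure the spread between these libraries.

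Entry into mitosis is driven by the kinase CDK1 with its B-type cyclins, which is switched on by CDC25 phosphatases and followed by the Polo-like and Aurora kinases. The condensins and topoisomerase II fold the chromosomes, kinetochores tie them to the spindle, and the spindle checkpoint holds back the anaphase-promoting complex until every chromosome is attached. RNA of most of these genes is low in G1 and highest in G2 and mitosis, in part through DREAM and the FOXM1 and B-MYB complexes, which act at a promoter element called the cell cycle homology region (CHR), often beside CCAAT boxes bound by NF-Y. Loss of Rb1, typical of small cell lung cancer, removes a restraint on this programme. In a bulk library, a changed share of cells in G2 and mitosis and a changed amount of RNA of these genes per cell cannot be told apart, in either direction.

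The promoters of the group shared these elements, which the choice of genes did not use. RefSeq promoter windows (GRCm38.p6, 250 bases before the start site and 50 bases from it on) were matched for 41 of the 50 genes. The CHR was searched as TTTGAA or TTCGAA and the CCAAT box as CCAAT, on both strands. TTCGAA reads the same on both strands, and a window was counted once however many matches it held, so overlapping matches did not raise a count. A CHR was found for 32 of 41 genes (78%), against 21.7% of the 27025 genes with windows. Starting within 50 bases of the start site, a distance chosen after the positions were seen, it was found for 29 genes (70.7%) against 6.12%. The CCAAT box was found for 33 genes (80.5%) against 41.1%, and both elements for 29 (70.7%) against 8.61%. Birc5, Mad2l1, Melk, Nuf2 and Pttg1 held neither. Such a match is a run of letters and not a shown binding site.

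The stretches below run from 150 bases before the start site to 30 bases from it on, 5′ to 3′ on the strand of the gene. Capitals mark TTTGAA and CCAAT, the latter also as ATTGG where it lies on the other strand. Cdk1 and Mki67 are shown as the engine and the usual marker of dividing cells, and Cdc20, Cenpa and Ncapd2 as the genes whose response differed most between library sets. Nek2 is shown as a gene with a large rise and CCAAT boxes but no CHR, and Pttg1 as the gene that went against the others.
Cdk1 (chr10:69352883-69353062, minus strand): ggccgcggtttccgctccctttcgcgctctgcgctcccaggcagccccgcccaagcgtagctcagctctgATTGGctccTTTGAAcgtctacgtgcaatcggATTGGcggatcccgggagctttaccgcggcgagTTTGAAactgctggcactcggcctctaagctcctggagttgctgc
Mki67 (chr7:135716350-135716529, minus strand): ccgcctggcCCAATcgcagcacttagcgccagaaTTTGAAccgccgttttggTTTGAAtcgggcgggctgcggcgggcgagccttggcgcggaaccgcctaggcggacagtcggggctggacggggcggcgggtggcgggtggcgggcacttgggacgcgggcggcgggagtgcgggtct
Cdc20 (chr4:118437314-118437493, minus strand): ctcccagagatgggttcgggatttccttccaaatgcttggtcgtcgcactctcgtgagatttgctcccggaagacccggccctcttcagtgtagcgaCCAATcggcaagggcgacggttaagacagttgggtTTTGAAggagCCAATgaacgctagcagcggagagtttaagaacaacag
Cenpa (chr5:30666736-30666915, plus strand): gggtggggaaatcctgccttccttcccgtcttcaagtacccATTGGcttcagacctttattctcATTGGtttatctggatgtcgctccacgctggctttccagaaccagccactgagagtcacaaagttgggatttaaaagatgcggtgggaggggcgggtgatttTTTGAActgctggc
Ncapd2 (chr6:125191557-125191736, minus strand): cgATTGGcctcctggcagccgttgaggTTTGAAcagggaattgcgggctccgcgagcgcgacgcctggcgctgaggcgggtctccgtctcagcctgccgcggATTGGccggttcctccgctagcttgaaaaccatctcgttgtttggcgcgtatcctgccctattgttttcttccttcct
Nek2 (chr1:191821323-191821502, plus strand): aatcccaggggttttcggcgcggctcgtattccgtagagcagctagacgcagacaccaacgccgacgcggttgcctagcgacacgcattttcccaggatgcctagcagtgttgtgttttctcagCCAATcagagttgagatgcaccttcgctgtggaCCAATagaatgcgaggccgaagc
Pttg1 (chr11:43425952-43426131, minus strand): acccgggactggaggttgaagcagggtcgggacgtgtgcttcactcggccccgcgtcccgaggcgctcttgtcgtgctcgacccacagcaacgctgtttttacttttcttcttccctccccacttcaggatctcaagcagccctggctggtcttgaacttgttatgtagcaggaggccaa
The CHR of Cdc20 and Cenpa lies close to the start site, those of Mki67 and Ncapd2 lie farther upstream, and Cdk1 and Mki67 each hold a pair. The printed stretch of Pttg1 holds neither element.

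**Figure D1:**
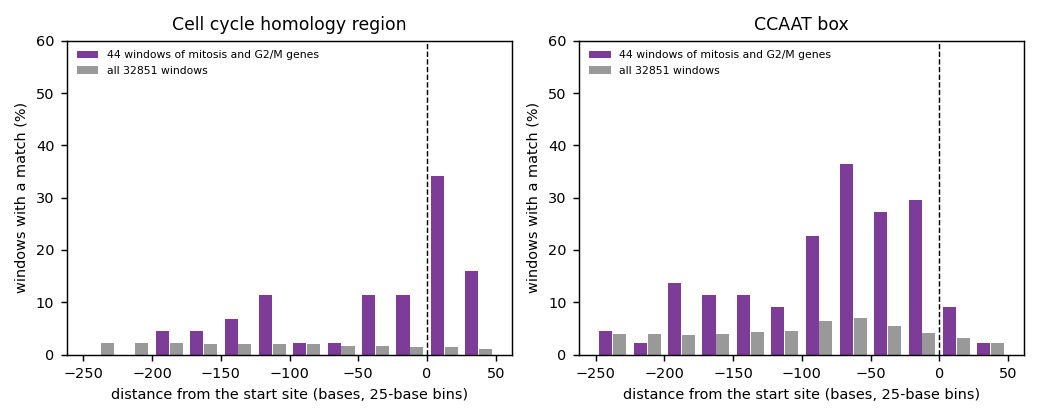
Distance of each CHR (left, TTTGAA or TTCGAA) and CCAAT box (right) from the RefSeq start site, in bins of 25 bases, as the percent of promoter windows with a match starting there, for the 44 windows of mitosis and G2/M genes (purple) and all 32851 windows (grey). The CHR of the mitosis genes was most frequent just after the start site and CCAAT most frequent in the 100 bases before it, and the grey bars stay below 10% in every bin.

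Control and stiripentol libraries each split into 2 clusters, and every value below has to be read with them in view. Controls 1 to 3 correlated with each other at 0.983 to 0.997 over the 12306 genes and with controls 4 and 5 at 0.920 to 0.939. Stiripentol 3 to 5 formed 1 cluster and stiripentol 1 and 2 the other, with correlations of 0.995 to 0.998 within and 0.922 to 0.938 between clusters. The order of the replicates printed by the study sets controls 1 to 3 beside stiripentol 3 to 5 (the 6-library set) and controls 4 and 5 beside stiripentol 1 and 2 (the 4-library set). What the clusters are is not given in the sources used here. Genes without reads carry -4.82 in controls 1 to 3 but -4.74 elsewhere, so 2 normalizations went into the table, 1 of them for these controls only. Depth, as recovered reads, was 22375625 (control 5) to 65299372 for controls and 55015760 to 60670901 for stiripentol libraries. No mitosis gene had fewer than 132 reads in any library, so counting error was small beside the spread between libraries.

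With stiripentol, 16 of the 50 mitosis and G2/M genes rose and 0 fell (limma, adjusted p under 0.05 over all genes tested), where 13.6% of all genes rose and 14.1% fell. At an unadjusted p under 0.05 (limma), 26 of the 50 were higher and 0 lower, counts that have no share of all genes beside them here. With limma voom on the recovered reads, 16 were again called higher and 0 lower, where 14.3% and 15.1% of all genes were. The median log2 change was 0.63 over the group and -0.06 over all genes. The mean was above 0 for 49 of the 50 genes, against 46.4% of all genes, and Pttg1 (-0.10) was the exception. With 1 mean per group and library set, 2 means against 2, no gene of the group was called. At an unadjusted p under 0.05 (limma), 13 of the 50 were then higher and 0 lower. Over all 12306 genes tested the count at that unadjusted threshold was 1116, with no split by direction here. The smallest adjusted p over all genes was 0.162 (limma).

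The mean log2 CPM over the 50 genes, called the mitosis score here, shows which libraries carried the difference. It was 6.57, 6.53 and 6.15 in controls 1 to 3, and 5.18 and 5.39 in controls 4 and 5. In stiripentol libraries it was 6.57 and 6.41 in replicates 1 and 2, and 6.78, 6.67 and 6.73 in replicates 3 to 5. The stiripentol libraries lay close together and the controls did not, with means of 6.63 ± 0.15 (SD, n = 5) and 5.96 ± 0.65 (SD, n = 5). The groups overlapped, since controls 1 and 2 reached the level of stiripentol 1 and 2. The 50 genes held 0.470% to 0.616% of the reads in controls 1 to 3, 0.246% and 0.293% in controls 4 and 5, and 0.641% to 0.730% in the stiripentol libraries. As a description with no test, the score was higher with stiripentol by 1.21 in the 4-library set and by 0.31 in the 6-library set.

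**Figure D2:**
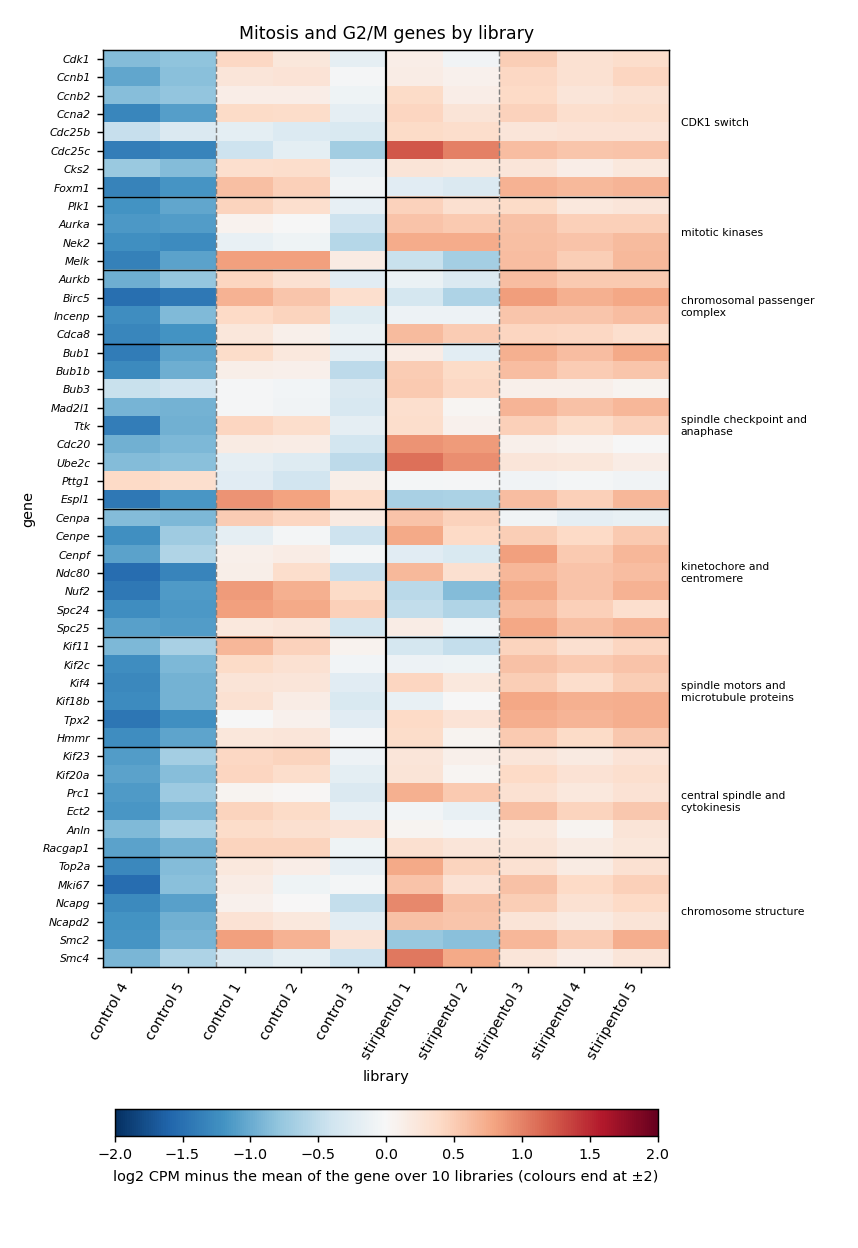
Heat map of the 50 genes (one per line, grouped by role) in the 10 libraries (columns), as log2 CPM minus the mean of the gene over all libraries, with red above and blue below that mean. The solid line parts control from stiripentol libraries and the dashed lines part the library sets; controls 4 and 5 are the lowest libraries for 48 of the 50 genes.

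Controls 4 and 5 lay below the other 8 libraries for 48 of the 50 genes, a pattern seen in 11.2% of all genes tested, and Cdc25b and Pttg1 were the exceptions. Between the 2 control clusters, the group differed by a median of 1.15 on the log2 scale (controls 1 to 3 minus controls 4 and 5), where all genes differed by -0.02. Between the stiripentol clusters the same median was 0.13 (range -0.83 to 1.43), where all genes differed by 0.32. Against controls 1 to 3 alone, controls 4 and 5 were lower for 48 genes (34.1% of all genes) and higher for 1, Pttg1 (36.8%). All 5 stiripentol libraries lay above all 5 controls for 16 genes, as in 13% of all genes, and below them for 0 genes, as in 14.3%. These 16 were the called genes with Ccnb2 in place of Ndc80.

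Counts by role, here and below, are to be read beside all genes tested, of which 13.6% rose and 14.1% fell. The CDK1 switch, the kinase with its cyclins, activating phosphatases and transcription factor, held 8 genes, of which 2 rose and 0 fell. Both were CDC25 phosphatases, which remove the inhibitory phosphates from CDK1. Cdc25c had log2 CPM of 4.08, 4.30, 3.79, 3.11 and 3.17 in controls 1 to 5 and 5.73, 5.50, 5.11, 5.04 and 5.06 in stiripentol 1 to 5. The groups did not overlap, and the rise of 1.60 on the log2 scale (3.03-fold, standard error 0.26, limma adjusted p = 0.00193) was the largest of the 50 genes. Cdc25b rose by 0.61 (limma adjusted p = 0.000905), with controls at 6.44 to 6.70 and stiripentol libraries at 7.15 to 7.28, and controls 4 and 5 did not stand apart from the other controls. Cdk1 itself had log2 CPM of 7.22, 7.04, 6.63, 5.95 and 6.01 in controls 1 to 5 and 6.94, 6.74, 7.30, 7.12 and 7.17 in stiripentol 1 to 5. Controls 1 and 2 lay among the stiripentol libraries, and the difference of 0.48 was not called (limma adjusted p = 0.166). Ccnb1, which encodes cyclin B1, had 6.93, 6.96, 6.66, 5.65 and 5.85 in controls and 6.84, 6.78, 7.11, 6.99 and 7.12 with stiripentol, a difference of 0.56 (limma adjusted p = 0.122), again with controls 4 and 5 as the lowest libraries. Foxm1, the transcription factor of many G2/M genes, had 7.20, 7.08, 6.53, 5.27 and 5.42 in controls and 6.37, 6.32, 7.30, 7.26 and 7.29 with stiripentol. Here each group was split, with the 4-library set low in both, and the difference of 0.61 was not called (limma adjusted p = 0.278), although it passed with the library set as a term (0.00968). Ccnb2 (0.59), Ccna2 (0.73) and Cks2 (0.43) were not called either. A processed copy of Ccnb1 listed in the table, Ccnb1-ps, held 0.874% as many reads as the gene, and Ccnb2-ps held 0.0440% as many as Ccnb2.

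Of the 4 other mitotic kinases, 2 rose. Nek2, a kinase of centrosome separation, had log2 CPM of 5.95, 6.02, 5.53, 4.87 and 4.85 in controls 1 to 5 and 6.85, 6.84, 6.70, 6.67 and 6.73 in stiripentol 1 to 5. All stiripentol libraries lay above all controls and within a narrow range, and the rise of 1.31 (standard error 0.23, limma adjusted p = 0.00294) was 2.49-fold. Aurka, the Aurora kinase of the spindle poles, rose by 1.05 (limma adjusted p = 0.00997), from 4.74 to 5.96 in controls to 6.37 to 6.48 with stiripentol. Plk1, the Polo-like kinase, had 6.49, 6.38, 5.88, 4.85 and 5.00 in controls and 6.51, 6.37, 6.42, 6.26 and 6.28 with stiripentol. Controls 1 and 2 were at the level of the stiripentol libraries, and the difference of 0.65 was not called (limma adjusted p = 0.134). Melk was not called, with a difference of 0.25.

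The chromosomal passenger complex, which corrects faulty attachments at the centromere, had 1 called gene of 4. Cdca8, which encodes borealin, rose by 0.93 (limma adjusted p = 0.0403). Aurkb, its kinase, had log2 CPM of 6.17, 6.05, 5.52, 4.77 and 4.98 in controls 1 to 5 and 5.61, 5.46, 6.37, 6.27 and 6.27 in stiripentol 1 to 5. As for Foxm1, the 4-library set was low in both groups, and the difference of 0.50 was not called (limma adjusted p = 0.228), although it passed with the library set as a term (0.00992). Birc5 (survivin) and Incenp, the scaffold, had the same split, with differences of 0.54 and 0.62 that were not called.

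**Figure D3:**
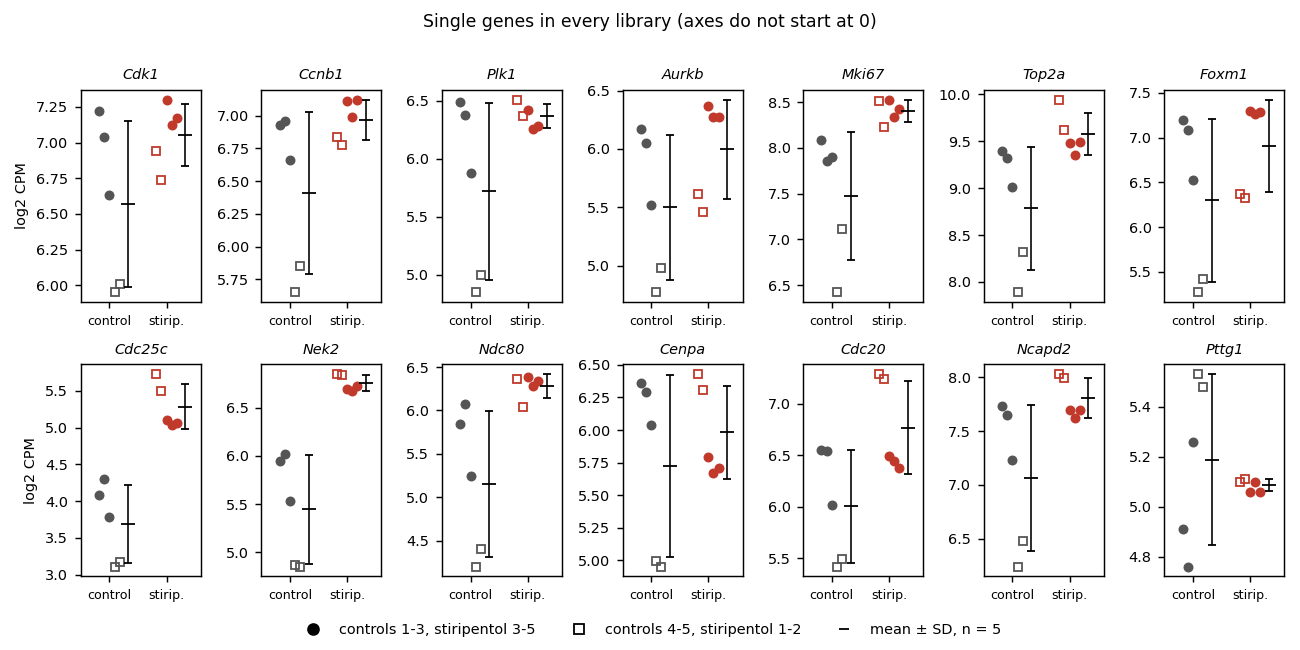
Log2 CPM of 14 genes in every library (one panel per gene, axes not starting at 0), with filled circles for controls 1 to 3 and stiripentol 3 to 5, open squares for controls 4 and 5 and stiripentol 1 and 2, and bars for the mean ± SD of 5 libraries. The open squares of the control group are the lowest points in every panel but that of Pttg1, and for Foxm1 and Aurkb the open squares of both groups lie low.

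Among 9 genes of the spindle checkpoint and of anaphase, 4 rose and 0 fell. Bub1b (BUBR1) rose by 1.02 (limma adjusted p = 0.0145), Mad2l1 (MAD2) by 0.92 (0.0119) and Bub3 by 0.48 (0.0221), all of which encode subunits of the mitotic checkpoint complex. Ube2c, a ubiquitin-conjugating enzyme of the anaphase-promoting complex, rose by 1.06 (limma adjusted p = 0.00656), from 6.14 to 6.82 in controls to 7.15 to 8.11 with stiripentol, the highest being stiripentol 1 and 2. Cdc20, the activator of that complex, had 6.55, 6.54, 6.02, 5.42 and 5.49 in controls 1 to 5 and 7.29, 7.24, 6.49, 6.45 and 6.38 in stiripentol 1 to 5. Stiripentol 1 and 2 lay above every other library while stiripentol 3 to 5 lay among controls 1 to 3, and the difference of 0.77 was not called (limma adjusted p = 0.0671). The checkpoint kinases Bub1 (0.82) and Ttk (0.70) were not called. Separase, encoded by Espl1, had a difference of 0.19 and its inhibitor securin, encoded by Pttg1, one of -0.10, and neither was called. Pttg1 had 4.91, 4.76, 5.26, 5.53 and 5.48 in controls and 5.10, 5.11, 5.06, 5.10 and 5.06 with stiripentol, so that controls 4 and 5 were its highest libraries. It was singled out after its values were seen.

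Of 7 kinetochore and centromere genes, 2 rose and 0 fell. Ndc80, whose product grips the microtubule end, had log2 CPM of 5.84, 6.07, 5.25, 4.20 and 4.40 in controls 1 to 5 and 6.36, 6.04, 6.38, 6.28 and 6.34 in stiripentol 1 to 5. Control 2 lay just above stiripentol 2, and the rise of 1.13 had a standard error of 0.34 (limma adjusted p = 0.0305). Cenpe, a kinesin of the kinetochore, rose by 1.03 (limma adjusted p = 0.00495). The partners of Ndc80 in its complex differed among themselves, with 0.86 for Spc25, 0.25 for Nuf2 and 0.14 for Spc24, none of them called. Cenpa, the histone H3 variant of centromeres, had 6.36, 6.29, 6.04, 4.99 and 4.95 in controls and 6.43, 6.31, 5.79, 5.67 and 5.71 with stiripentol. Stiripentol 3 to 5 lay below controls 1 to 3 and stiripentol 1 and 2 above controls 4 and 5, and the difference of 0.26 was not called (limma adjusted p = 0.555). Cenpf (0.59) was not called.

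The 6 spindle motors and microtubule proteins included 1 called gene, Tpx2, which activates Aurora A and nucleates spindle microtubules and rose by 1.12 (limma adjusted p = 0.0189). Kif18b (0.82), Kif4 (0.79), Hmmr (0.74), Kif2c (0.60) and Kif11 (0.14) were not called. In the central spindle and cytokinesis, 1 of 6 genes rose, which was Prc1, the bundler of midzone microtubules (0.82, limma adjusted p = 0.0214). The others, Ect2 (0.55), Kif20a (0.53), Racgap1 (0.49), Kif23 (0.42) and Anln (0.23), were not called.

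Of 6 genes of chromosome structure, 3 rose and 0 fell. Smc4, an ATPase of condensin, rose by 0.97 (limma adjusted p = 0.00638) and Ncapg, a subunit of condensin I, by 1.10 (0.0137). Smc2, which pairs with Smc4 in the same complex, had a difference of 0.13 (limma adjusted p = 0.858), with stiripentol 1 and 2 at 5.40 and 5.32 and stiripentol 3 to 5 at 6.66 to 6.87. Smc4 was in contrast highest in stiripentol 1 and 2, at 9.70 and 9.41. Ncapd2, a further condensin I subunit, had 7.73, 7.65, 7.23, 6.24 and 6.48 in controls and 8.03, 7.99, 7.70, 7.62 and 7.70 with stiripentol, and its difference of 0.74 was not called (limma adjusted p = 0.0712). Mki67, which coats mitotic chromosomes and marks cycling cells, had 8.09, 7.86, 7.90, 6.42 and 7.11 in controls and 8.51, 8.23, 8.52, 8.34 and 8.42 with stiripentol. The groups did not overlap, control 4 was the lowest library, and the rise was 0.93 (standard error 0.28, limma adjusted p = 0.0331). Top2a, the topoisomerase that untangles sister chromatids, had 9.39, 9.32, 9.01, 7.89 and 8.32 in controls and 9.94, 9.62, 9.48, 9.35 and 9.49 with stiripentol, a difference of 0.79 that missed the threshold (limma adjusted p = 0.0548).

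Leaving out each library in turn left 13 to 21 of the 50 genes called higher, where 9.9% to 13.9% of all genes were. Of the 16, 12 passed in all 10 of these fits and 4 did not. Cdca8 passed in 2 of 10, only without control 1 or 2 (limma adjusted p from 0.0274 to 0.0791 over the 10), and Bub3 passed in all but that without stiripentol 2 (0.0560). Mki67 passed in 4 of 10 and lost its call without control 5 or any 1 stiripentol library, with adjusted p up to 0.0664 (limma). Ndc80 passed in 3 of 10, without control 1, control 2 or stiripentol 2, with adjusted p up to 0.0599 (limma). Without control 1, Ccnb2, Kif4, Ncapd2, Spc25 and Top2a were called as well, and without control 2 the same but for Ncapd2.

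The response was then compared between library sets, with a test of the difference itself. For 40 of the 50 genes the change with stiripentol was smaller in the 6-library than in the 4-library set (limma interaction, adjusted p under 0.05), where 18.1% of all genes had a smaller one. It was larger for 1 gene, Pttg1 (-0.40 in the 4-library and 0.10 in the 6-library set), where 45.3% of all genes had a larger one. Smaller and larger refer to the signed change, not to its size. A rise that turned into a fall, as for Cenpa, therefore counted as smaller. With each library centred on its median these counts were 48 and 0, where 32.8% of all genes had a smaller and 30.8% a larger change. With limma voom on the recovered reads they were 39 and 1 (17.7% and 45.1% of all genes). The median interaction was -0.91 over the group and 0.33 over all genes. Cenpa had the largest, at -1.91 (standard error 0.14, limma adjusted p = 1.45e-06), followed by Cdc20 at -1.75 and Ncapd2 at -1.52. The error of this test comes from the small spread of libraries inside their cluster. The clusters were found in these same values, and joining them into sets rests on the printed order of the replicates. The p-values of this test therefore do not measure how the response varies between repeats of the experiment.

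In the 4-library set alone, 48 of the 50 genes rose and 1 fell (limma, 25.7% and 46.5% of all genes), with a median of 1.13 against -0.25 over all genes. Cdc25c (2.48), Nek2 (1.98) and Ncapg (1.96) had the largest rises in that set. Stiripentol 1 and 2 lay above controls 4 and 5 for 49 genes (32.4% of all genes) and below for 1, Pttg1 (54.3%). Pttg1 fell by 0.40, near the median of all genes there, and Smc2 was not called (0.26, limma adjusted p = 0.0819). The mean log2 CPM over all genes tested was 4.45 and 4.54 in stiripentol 1 and 2 and 4.87 to 4.95 in the other 8 libraries, and its part in these counts was not tested. In the 6-library set alone, 24 of the 50 rose and 1 fell (limma, 37.7% and 27% of all genes), with a median of 0.31 against 0.08. The 24 held all 16 genes called over the 10 libraries, again led by Cdc25c (1.01), Nek2 (0.87) and Mad2l1 (0.79). Stiripentol 3 to 5 lay above controls 1 to 3 for 29 genes (41.6% of all genes) and below for 2, Cenpa and Anln (29.9%). Cenpa fell by 0.51 in that set (limma adjusted p = 0.00205). Cdk1 (0.23), Plk1 (0.07), Cdc20 (0.07), Top2a (0.20) and Racgap1 (-0.05) were not called there. With the library set as a term in the fit of all 10 libraries, 36 genes of the group rose and 0 fell (limma, 23.6% and 27.1% of all genes). Cdk1 (limma adjusted p = 0.0205), Ccnb1 (0.0132), Top2a (0.0277) and Ncapd2 (0.0368) then passed as well, whereas Plk1 (0.0574), Cdc20 (0.0526) and Cenpa (0.513) did not.

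**Figure D4:**
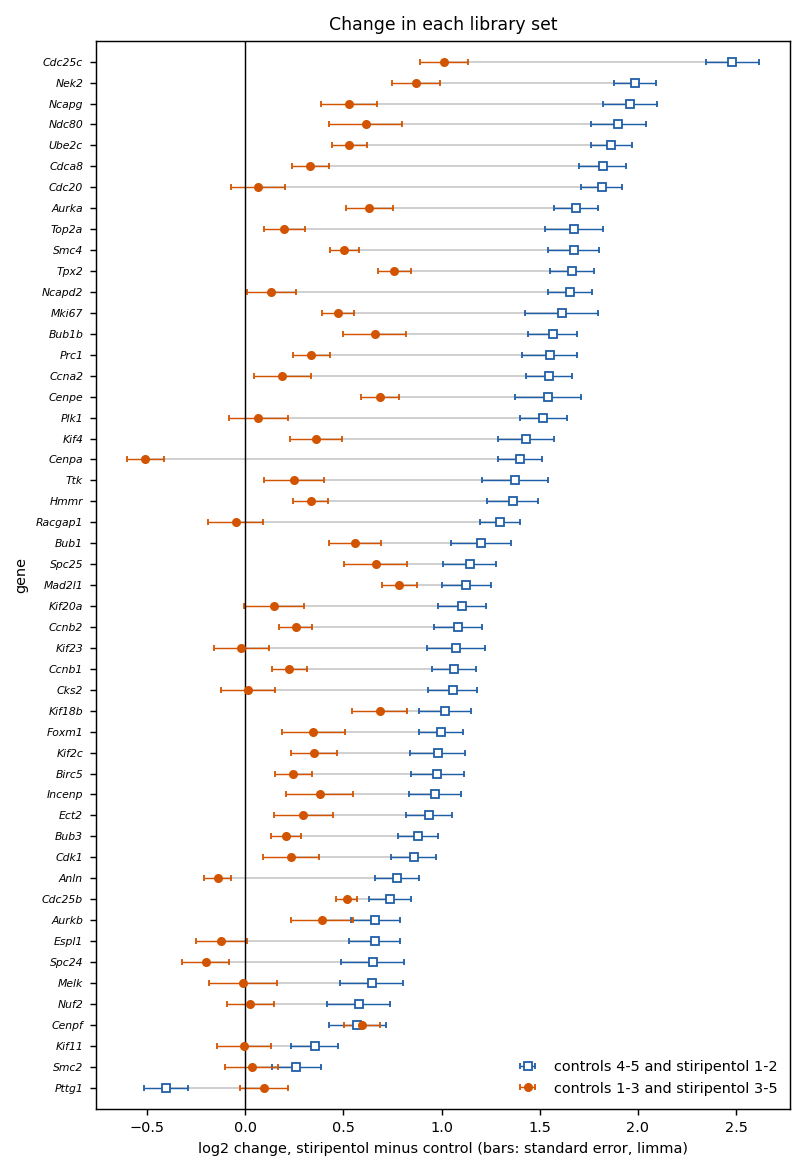
Log2 change with stiripentol of each of the 50 genes in the 4-library set (open squares, controls 4 and 5 with stiripentol 1 and 2) and in the 6-library set (filled circles, controls 1 to 3 with stiripentol 3 to 5), with limma standard errors. The squares lie to the right of the circles for 48 genes, all but Cenpf and Pttg1, and the circles of 42 genes lie above 0.

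The direction within the stiripentol group differed between genes. Stiripentol 1 and 2 lay above stiripentol 3 to 5 for 14 of the 50 genes (27.7% of all genes), among them Cdc25c, Nek2, Cdc20, Ube2c, Cenpa, Top2a, Ncapg and Smc4. They lay below for 24 (59% of all genes), among them Foxm1, Aurkb, Birc5, Espl1, Nuf2, Spc24, Melk and Smc2. Birc5 had 5.23 and 4.97 in stiripentol 1 and 2 against 6.30 to 6.42 in stiripentol 3 to 5. In the controls the clusters ordered 48 of the 50 genes the same way.

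Genes around the group were read from further lists. Of 104 other mitosis genes, 103 were tested, and 18 rose and 1 fell (limma, 13.6% and 14.1% of all genes), with a median of 0.24 beside -0.06 over all genes. The counts of the smaller lists that follow are to be read against the same shares. Those of CDK1 regulation had 2 of 12 higher, Mastl (0.97), the Greatwall kinase that restrains the phosphatase opposing CDK1, and Cdca2 (0.85). Of the 30 kinetochore genes tested, 7 rose, led by Cenpk (1.11), Ska3 (1.10), Cenpn (1.09), Cenpq (1.00) and Knl1 (0.95), all of which belong to the inner or outer kinetochore. Of 17 genes of the anaphase-promoting complex, 1 rose, Ube2s (0.70), which extends ubiquitin chains and works after Ube2c. Of 15 cohesin and condensin genes, Esco2 (1.19), a cohesin acetyltransferase, rose and Pds5b (-0.62), a cohesin regulator, fell. Of 29 other spindle genes, 7 rose, led by Kif18a (1.29), Arhgap11a (1.27), Ckap5 (1.13), Spag5 (1.12) and Troap (0.80).

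Genes of the preceding cell cycle phases, which prepare and copy the DNA, formed a further list. Of 40 G1/S and replication genes, 1 rose, Rfc4 (0.69), which loads the replication clamp, and 1 fell, Cdk2 (-0.50), with a median of -0.05, where 13.6% of all genes rose and 14.1% fell. They shared the difference between the control clusters, with a median of 1.09 for controls 1 to 3 minus controls 4 and 5 beside 1.15 for the mitosis group. In the 4-library set 13 of them rose and 10 fell (limma, 25.7% and 46.5% of all genes), with a median of 0.12 beside -0.25 over all genes. In the 6-library set 5 rose and 15 fell (limma, 37.7% and 27% of all genes), with a median of -0.15 beside 0.08. Of 22 regulators of cell cycle promoters, 2 rose, the DREAM subunits Lin37 (1.30) and Lin52 (0.61), and 0 fell.

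**Figure D5:**
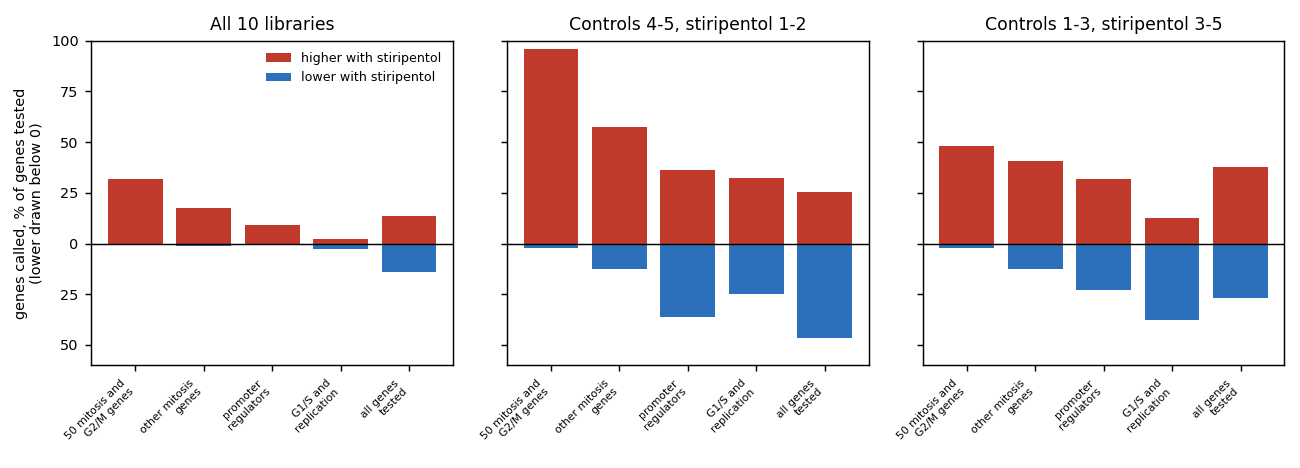
Percent of the tested genes of each list called higher (red, above 0) or lower (blue, drawn below 0) with stiripentol by limma over all 10 libraries (left), in the 4-library set (middle) and in the 6-library set (right). Other mitosis genes are pooled in 1 bar. Of the 5 bars drawn in each panel, that of the 50 mitosis and G2/M genes is the tallest red one (16, 48 and 24 genes), and the G1/S and replication genes have a red bar below that of all genes in the left and right panels.

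The label of the line was checked against markers. Insm1, Syp, Dll3, Nkx2-1 and Epcam, which mark neuroendocrine small cell lung cancer or lung epithelium, were under 1 CPM in every library, while Ncam1 (6.54 to 6.88 in controls and 6.97 to 7.27 with stiripentol) and Yap1 (7.17 to 7.46 and 5.62 to 6.91) were not. Of 13 such markers 10 were found, and the other 3 (Neurod1, Chga and Calca) were not analysed here. The 10 summed to 248 to 285 CPM in control and 184 to 277 CPM in stiripentol libraries, most of it from Ncam1 and Yap1. The mean of Pou2f3 lay below the level for testing, with log2 CPM of -0.18 to 2.19 in controls and -3.49 to -1.71 with stiripentol. Uchl1 was not called over all libraries (0.22). Its change was -1.692 in the 4-library set (limma adjusted p = 0.000128) and 1.496 in the 6-library set (0.00448). Ncam1 rose by 0.46 (limma adjusted p = 0.00911) and Yap1 fell by 0.87 (0.0250). The cells are therefore described here by the name of the line. Rb1 was at 2.02 to 3.50 in controls and 2.80 to 4.57 with stiripentol, and the exons behind these values are not known.
Markers of other cell types moved with the treatment. The summed level of 10 fibroblast markers was 404 to 697 CPM in control and 152 to 186 CPM in stiripentol libraries, and 4 of the 6 tested fell (Col1a2, Col3a1, Pdgfra and Pdgfrb), while Lum, Thy1, Fap and Postn were under 1 CPM throughout. Controls 1 to 3, where the mitosis genes were higher, had 635 to 697 CPM of the fibroblast markers and controls 4 and 5 had 404 to 523 CPM. Col1a1 had the other order, with log2 CPM of 4.67 to 6.11 in controls 1 to 3 and 7.80 and 8.33 in controls 4 and 5. The leukocyte markers summed to 6.50 to 19.0 CPM in control and 59.0 to 104 CPM in stiripentol libraries. Cd68, a lysosomal protein, rose by 3.21 (limma adjusted p = 0.000819) and made up most of the sum in the latter, while Ptprc, Csf1r, Cd79a and Itgam were under 1 CPM in every library. The endothelial markers summed to at most 6.27 CPM. The part of any of these in the values of the mitosis genes was not tested.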

How the data were processed

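RNA of 5 control and 5 stiripentol libraries was sequenced after 48 h. The authors deposited log2 CPM (counts scaled to the library total) per gene and library, with a prior in proportion to the library total added before the logarithm. The methods name Lexogen QuantSeq 3′ mRNA libraries and GENAVi for normalization, the sample records name TruSeq total RNA, and the processing notes name mm10. Aligner, annotation and filters are not given in the sources used here. With 3′ libraries a value does not depend on gene length and with total RNA it does, so levels were not compared between genes. The deposited group means, p-values, q-values and fold changes were not used. Whole reads were recovered from 100% of values within 0.05 reads, and depth limits counting error only.

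Group members were the rows with the listed symbols. The members and all lists were chosen with earlier results of these data known. Stiripentol minus control was fitted with limma 3.58.1 (trend, R 4.3.3) on the deposited log2 values of the 12306 genes with a mean above 0, without covariates, with Benjamini-Hochberg adjustment over all of them and a threshold of 0.05. A fold change is on the log2 CPM scale with that prior. The interaction is the change in the 6-library set minus that in the 4-library set, so smaller and larger refer to the signed change. Genes given in every library were Cdk1, Ccnb1, Plk1, Aurkb, Mki67, Top2a and Foxm1, the 3 called genes with the largest rise (none fell) and the 3 with the largest interaction. Called genes are named, and of each further list at most 5. Alternatives were other scalings, filters, pseudocounts, limma voom, robust hyperparameters, a minimum change, each library left out, replicate blocks, the library sets, 1 mean per set and the libraries of 1 normalization set. The replicate block in the printed order of the study was added after the data were seen. On data simulated from the library means, limma called 200 of 200 changed genes among 12306 and 11 others, and 0 with no gene changed. The simulated libraries were independent, with 1 dispersion for all genes and no library sets. The simulation therefore cannot give error rates for libraries that split into clusters. Python 3.11.15 with pandas 2.3.3, numpy 2.4.6, scipy 1.17.1 and matplotlib 3.10.9 was used for tables and figures. Promoter windows were RefSeq, GRCm38.p6. Results of some genes of the marker lists are not reported here.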

Additional observations from a re-analysis of the deposited data

Results flagged for a closer look

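The total of 1 control library, control 5 with 22375625 reads, was far below those of the other controls. Among 104 groups of 5 values tested in this way 1 stood apart, where chance gives about 5.2.

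The change with stiripentol differed between the library sets, tested with a limma interaction term, for 41 genes of the group. With its sign kept, the change was smaller in the 6-library set for 40 (18.1% of all genes) and larger for 1 (45.3%). Among the genes given in every library, the interaction on the log2 scale was -0.62 for Cdk1, -0.84 for Ccnb1, -1.45 for Plk1, -1.14 for Mki67, -1.47 for Top2a and -0.65 for Foxm1. It was -1.47 for Cdc25c, -1.11 for Nek2, -1.29 for Ndc80, -1.91 for Cenpa, -1.75 for Cdc20 and -1.52 for Ncapd2. For Aurkb it was -0.27 and did not pass (limma adjusted p = 0.316). Controls 1 to 3 carry a normalization of their own. With limma voom on the recovered reads, which treats all libraries alike, 39 genes had a smaller and 1 a larger change in the 6-library set (17.7% and 45.1% of all genes). After quantile normalization these counts were 47 and 0 (31% and 29% of all genes).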

How the results depend on the processing

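Over all 10 libraries 16 genes of the group were called higher and 0 lower. The count of higher calls was 36 with a term for the library set, 48 in the 4-library set, 42 in the libraries of 1 normalization set (10.1% of all genes), whose only controls are controls 4 and 5, 9 with an absolute log2 change of at least 1 (3.28% of all genes), and 0 with 1 mean per group and set, where fewer values are compared. With each library left out it was 13 to 21, and under the other alternatives run it stayed within 1.5 times of 16. Lower calls were 1 in the 4-library set, in the 6-library set and in the libraries of 1 normalization set. In the 6-library set the change was opposite in sign for Cenpa (-0.51), Spc24 (-0.2), Anln (-0.14) and Espl1 (-0.12). Racgap1 (-0.05), Kif23 (-0.02), Melk (-0.01) and Kif11 (-0.005) were also below 0 there, and Pttg1 was above it, at 0.10. Of these genes, Cenpa alone was called in that set. The score difference of 0.67 was 1.35 in the libraries of 1 normalization set and 0.47 to 0.82 with a library left out. Genes of the group with all stiripentol above all control libraries numbered 16 to 19 with a library left out, beside 1637 to 1815 of all 12306 genes tested. The interaction larger in the 6-library set was found for 0 genes with median centring (30.8% of all genes) or quantile normalization (29%). It was found for 0 to 1 with a library left out (39.8% to 49.5%). That smaller in the 6-library set was found for 33 to 48 with a library left out (15.5% to 21.5% of all genes). Of the 165 tested genes of the further lists, 21 were called higher and 2 lower, beside 13.6% and 14.1% of all genes. Higher calls were 35 with quantile normalization (16.9% of all genes), 53 with the library set as a term (23.6%), 80 in the 4-library set (25.7%) and 54 in the 6-library set (37.7%). They were 53 in 1 normalization set (10.1%), 0 with 1 mean per group and set (0%), 10 with a minimum log2 change of 1 (3.28%) and 13 to 25 with a library left out (9.9% to 13.9%). Lower calls were 1 with median centring (14.6%), without a filter (6.63%) and in 1 normalization set (9.87%). They were 19 with the library set as a term (27.1%), 31 in the 4-library set (46.5%) and 33 in the 6-library set (27%). They were 0 with 1 mean per group and set (0%), 0 with a minimum change (7.23%) and 0 to 5 with a library left out (9.52% to 14.6%). The cause of these shifts was not tested.

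The deviations of same-numbered libraries of the records from their group means correlated at -0.24 to 0.0612. These deviations hold the split into clusters, so the correlations cannot show whether samples were paired. With the replicate numbers of the records as a block, 13 genes of the group were called higher (8.29% of all genes), 11 of them among the 16. In the further lists 1 gene was then called lower (8.63% of all genes). A replicate block in the printed order of the study (correlations 0.0841 to 0.224) was added after the data were seen. With it 23 genes of the group were called higher (16.7% of all genes), 13 of them among the 16 (without Bub3, Cdca8 and Prc1). Foxm1 (limma adjusted p = 0.0373) and Aurkb (0.0290) were among the others. Of the further lists, 35 genes were higher and 9 lower (16.7% and 17.9% of all genes).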
